A study of Mus musculus with 8 samples.

Results

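Atg9b, Inka2, Sval1, Lrrc71 and Ddah1 are 5 genes, of 55487 named genes in the deposited table, that were picked by name because their counts were much higher after CPT-11 in these same libraries. No informative Gene Ontology term in the table was shared by any pair of them, though Inka2, Sval1 and Lrrc71 had only 5, 5 and 4 terms. They are grouped here by that choice alone. Their difference between the groups is therefore described here and not tested, and the account turns on how evenly each gene was raised among the treated libraries, what its relatives and neighbours did, and whose reads were counted. The libraries came from ileal crypt cells of C57BL/6 mice given CPT-11 at 20 mg per kg for 7 days (4 libraries) or vehicle (4 libraries). CPT-11 is irinotecan, a prodrug whose active form traps topoisomerase I on DNA. Crypts were shaken from the ileum after EDTA, strained and trypsinised into single cells with no sort. The labels give no age or sex, and do not say that each library was a separate mouse, so p-values measure how far these libraries scatter, some of which may be technical.

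Atg9b encodes the less studied of a pair of ATG9 proteins, which are membrane-spanning lipid scramblases that travel on small vesicles and supply membrane to the growing autophagosome. Inka2 encodes an inhibitor of the kinase PAK4, which acts on the actin cytoskeleton, and the human gene has been described as a p53 target. Sval1 belongs to a family of small secreted proteins related to seminal vesicle antigen and prolactin-induced protein. Lrrc71 encodes a leucine-rich repeat protein of unknown function. Ddah1 encodes the dimethylarginine dimethylaminohydrolase that breaks down methylated arginines, which otherwise inhibit nitric oxide synthases.

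Topoisomerase damage activates the transcription factor p53, so the sequences before the start sites of 4 of these genes are shown with any match to the p53 half-site, a 10-base motif, in capitals. The fifth, Lrrc71, is left out here because of the read sharing given below. The windows run from 250 bases before to 50 bases after an annotated start, are written 5′ to 3′ on the strand of the gene, and come from RefSeq on GRCm38.p6. They are chr3:105705208-105705507 (plus strand, the downstream of the 2 Inka2 starts), chr3:145758442-145758741 (plus strand, Ddah1), chr5:24392094-24392393 (minus strand, Atg9b) and chr6:41951378-41951677 (plus strand, Sval1).
Inka2: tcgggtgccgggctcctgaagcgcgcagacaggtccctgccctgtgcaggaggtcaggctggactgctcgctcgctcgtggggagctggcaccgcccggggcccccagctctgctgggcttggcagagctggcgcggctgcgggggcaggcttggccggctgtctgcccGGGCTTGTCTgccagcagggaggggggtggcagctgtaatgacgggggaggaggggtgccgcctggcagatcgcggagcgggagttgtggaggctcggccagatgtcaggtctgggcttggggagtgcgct
Ddah1: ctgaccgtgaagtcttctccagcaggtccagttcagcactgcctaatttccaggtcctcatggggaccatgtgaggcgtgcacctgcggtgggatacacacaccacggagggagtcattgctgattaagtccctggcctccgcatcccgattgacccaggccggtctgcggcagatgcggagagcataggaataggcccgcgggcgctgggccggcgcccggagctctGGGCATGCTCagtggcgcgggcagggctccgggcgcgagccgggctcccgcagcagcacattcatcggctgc
Atg9b: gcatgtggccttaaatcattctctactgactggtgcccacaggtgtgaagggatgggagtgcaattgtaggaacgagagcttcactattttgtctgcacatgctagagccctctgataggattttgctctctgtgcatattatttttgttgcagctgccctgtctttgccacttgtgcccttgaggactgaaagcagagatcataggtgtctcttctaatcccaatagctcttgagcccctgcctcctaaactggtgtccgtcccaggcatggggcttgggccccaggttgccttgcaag
Sval1: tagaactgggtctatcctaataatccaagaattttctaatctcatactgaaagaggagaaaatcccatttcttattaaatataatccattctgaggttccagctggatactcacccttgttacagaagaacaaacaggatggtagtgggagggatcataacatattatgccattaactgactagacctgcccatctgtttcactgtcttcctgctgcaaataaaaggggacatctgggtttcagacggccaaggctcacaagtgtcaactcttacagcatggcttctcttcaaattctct

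The Inka2 window held 1 half-site, GGGCTTGTCT, that begins 81 bases before the start, and the Ddah1 window held 1, GGGCATGCTC, that begins 22 bases before it. The windows of Atg9b, Sval1, Lrrc71 and the upstream Inka2 start (chr3:105704349-105704648) held none. Of 32851 such windows over all genes 8.36% held a half-site, so these matches describe the sequence and mark no binding. Across the 6 windows, both strands were also searched for TGANTCA (AP-1; in 7.81% of all windows), TGACNNNGC (antioxidant response element; 12.4%), TATAAA (13.6%) and CCAAT (37.4%). CCAAT lay in the Atg9b, Lrrc71 and upstream Inka2 windows, TGACNNNGC in the Lrrc71 window and TATAAA, on the other strand and far from the start, in the upstream Inka2 window. Neither the Sval1 nor the Ddah1 window held any of these 4, and none of the windows held TGANTCA.

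Total counts were 20790164 to 23479121 per library. Epithelial markers were high in every library, and of 11 genes of ileal epithelium 11 were detected. Of these 11, 1 rose with CPT-11 (Slc10a2) and 0 fell, and 3 were higher at an unadjusted p below 0.05 (edgeR). Over all genes tested, 2.98% were called higher and 2.52% lower at an adjusted p below 0.05. The share of all genes at an unadjusted p below 0.05 was not counted. Such counts, here and below, therefore have no background beside them. Of 8 crypt base stem cell genes 4 fell and 0 rose (Lgr5, Olfm4, Smoc2 and Rgmb), and their summed level was 1579 to 1884 CPM (counts scaled to library size) with vehicle and 508 to 763 CPM with CPT-11. CPT-11 replicates 2 and 4 stood apart. In CPT-11 replicate 2 the median log2 deviation from the vehicle mean was 1.19 lower for long tested genes (at least 4152 bases) than for short ones (up to 1664 bases), and in replicate 4 it was 0.62 lower. In the other 6 libraries this balance lay between -0.19 and 0.20. CPT-11 replicate 2 also had the highest summed level of 14 enterocyte genes (62085 CPM, against 19875 to 29782 CPM in the other CPT-11 libraries and 13176 to 21635 CPM with vehicle) and of 8 goblet cell genes (36704 CPM, against 10659 to 20243 CPM and 10571 to 14728 CPM). In bulk libraries fewer cells of a type and less RNA per cell cannot be told apart.

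All 5 genes lay higher in every CPT-11 library than in any vehicle library, which was so for 8.43% of the 14011 genes tested. That contrast chose them, so nothing is read from it. Across all genes 5.5% were called, 2.98% higher and 2.52% lower (quasi-likelihood test of edgeR, with p adjusted by Benjamini-Hochberg and below 0.05), and the median log2 fold change was 0.014. All 5 passed the filter on low counts. Atg9b, Inka2 and Lrrc71, however, had fewer than 10 counts in every vehicle library and passed it only through the CPT-11 group. The vehicle libraries of Sval1, with 16, 10, 7 and 12 counts, would not have sufficed alone either. The evenness of the treated libraries differed between the genes. The coefficient of variation among the 4 CPT-11 libraries was 12.1% for Ddah1, 34.9% for Inka2, 39.3% for Atg9b, 74.4% for Sval1 and 154% for Lrrc71. With each library's trend on gene length removed, it was 21.9%, 32.2%, 36.8%, 40.6% and 161% in the same order of genes. The steadiness of Ddah1 is thus smaller once gene length is allowed for. Sval1 then lies near Inka2 and Atg9b, and Lrrc71 alone stands far apart. Inka2 and Atg9b were highest in CPT-11 replicate 1, and the other 3 in replicate 2.

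**Figure D1:**
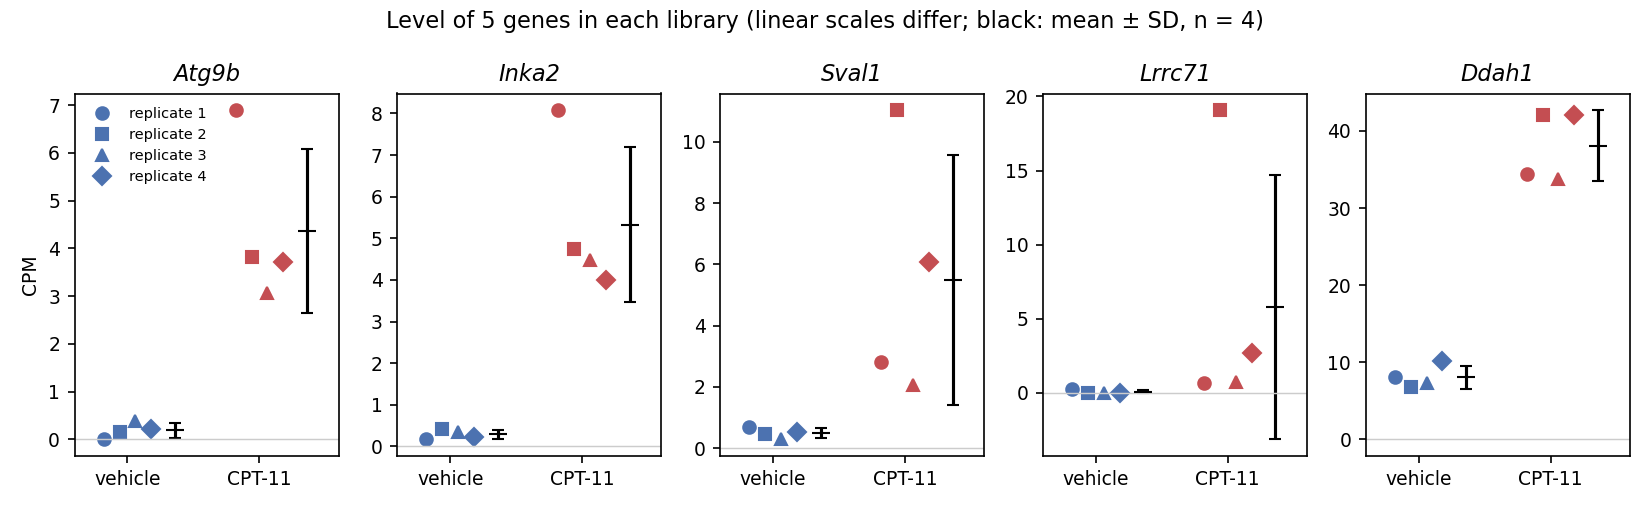
Level of each gene in CPM (linear scales that differ between panels) in the 4 vehicle libraries (blue) and the 4 CPT-11 libraries (red), with a marker shape per replicate number and the mean ± SD in black. The treated Ddah1 values lie between 33.7 and 42.1 CPM, while Lrrc71 has a single treated library, at 19.1 CPM, far above the other 3 at 0.65 to 2.68 CPM.

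Ddah1 was the steadiest of the 5 and had the highest CPM. Its level was 8.02, 6.73, 7.35 and 10.2 CPM in vehicle replicates 1 to 4 and 34.5, 42.1, 33.7 and 42.1 CPM in CPT-11 replicates 1 to 4. The lowest treated library stood 3.32 times above the highest vehicle library. The mean went from 8.06 ± 1.49 to 38.1 ± 4.63 CPM (SD, n = 4 each), a fitted log2 fold change of 2.24 ± 0.17 (SE), or 4.72-fold, the smallest of the 5. With each library's trend on gene length removed, the treated values lay further apart, at 35.2, 52.2, 32.8 and 45.5 CPM in replicates 1 to 4. All 8 counts, from 142 to 851, were whole numbers. The gene spans 135603 bases on chromosome 3 (145758675 to 145894277, plus strand, GRCm38, GENCODE M21) and is annotated as protein-coding. The ribosomal protein pseudogene Rpl36a-ps2 lies in it but shares 0 exonic bases with it. Its reads may belong in part to near-identical ribosomal protein copies, and it stood at 70.3 to 156 CPM with no difference called (adjusted p = 0.697).

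Per kilobase of gene, using the deposited lengths, the vehicle level of Ddah1 was 2.14 ± 0.396 CPM and its CPT-11 level 10.1 ± 1.23 CPM. Its paralogue Ddah2 stood at 0.262 ± 0.106 and 0.415 ± 0.154 CPM per kilobase. Ddah2 was not called (log2 fold change 0.64 ± 0.44, adjusted p = 0.385). Ddah1 thus exceeded Ddah2 per length in both groups. Sval1, a much shorter gene, had 0.803 ± 0.270 and 8.94 ± 6.65 CPM per kilobase, and the mean ± SD ranges of these genes overlapped with CPT-11.

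Of the 20 tested genes of a list on nitric oxide and arginine, Ddah1 itself left out, 3 rose and 1 fell (edgeR quasi-likelihood test, adjusted p below 0.05), with a median log2 fold change of 0.068. The background was 2.98% and 2.52% of all genes. Nos2, the inducible nitric oxide synthase, had 6.67, 4.41, 4.84 and 4.78 CPM with vehicle and 44.1, 33.3, 80.0 and 23.7 CPM with CPT-11. The groups did not overlap, and Nos2 rose 8.75-fold (log2 fold change 3.13 ± 0.36, adjusted p = 0.00179). Its treated libraries were less even than those of Ddah1, with replicate 3 highest and replicate 4 lowest. Gch1, the first enzyme in making the synthase cofactor tetrahydrobiopterin, rose from 14.3 ± 2.41 to 30.6 ± 4.44 CPM (n = 4 each, adjusted p = 0.00707). Nostrin, which binds the endothelial synthase and takes part in its trafficking, rose from 39.5 ± 3.29 to 59.7 ± 3.11 CPM (adjusted p = 0.0162). That call was lost without vehicle replicate 1, 2 or 3 (adjusted p 0.0501 to 0.0716), in fits with a library fewer. Slc7a2, a transporter of arginine and other cationic amino acids, fell from 4.50 ± 0.441 to 1.11 ± 0.311 CPM (n = 4 each, edgeR adjusted p = 0.00262). Nos1 and Nos3, the neuronal and endothelial synthases, had at most 0.128 and 0.167 CPM in any library and were below the filter.

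Inka2 was near the floor of detection with vehicle and moderate and fairly even with CPT-11. It had 4, 9, 8 and 5 counts in vehicle replicates 1 to 4 and 178, 77, 107 and 81 in CPT-11 replicates 1 to 4, all whole numbers. On the CPM scale these were 0.174, 0.426, 0.334 and 0.213 against 8.08, 4.75, 4.48 and 4.00. Replicate 1 stood above the other treated libraries, which lay close together at 4.41 ± 0.377 CPM (SD, n = 3). The lowest treated library was 9.39 times the highest vehicle library, the widest gap of the 5 genes. The fitted log2 fold change was 4.20 ± 0.37 (SE). With each library's trend on gene length removed, the treated values were 8.47, 6.44, 4.28 and 4.66 CPM in replicates 1 to 4. Replicates 2 to 4 then lay less close together. Inka2 lies on chromosome 3 (105704599 to 105720842, plus strand), is protein-coding and overlaps no other annotated gene. Its relative Inka1 had at most 0.136 CPM in any library.

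Calls among the pathway genes around Inka2 were counted beside those over all genes. Of 21 tested genes of p21-activated kinases, their small GTPase activators and their cytoskeletal targets, 1 rose and 1 fell (edgeR, adjusted p below 0.05), and the median log2 fold change was 0.12. The background was 2.98% and 2.52% of all genes. With 1 call in each direction among 21 genes, nothing is read from the count. At an unadjusted p below 0.05, 5 were higher and 4 lower, and DESeq2 called 4 higher and 1 lower. Rhov, an atypical small GTPase that binds these kinases, rose from 0.941 ± 0.0306 to 2.27 ± 0.447 CPM (log2 fold change 1.27 ± 0.26, adjusted p = 0.0221). Limk2, a kinase that inactivates cofilin, fell from 122 ± 7.77 to 78.1 ± 9.84 CPM (log2 fold change -0.64 ± 0.13, adjusted p = 0.0205). Both calls were lost in fits with a library fewer: Rhov without any 1 vehicle replicate (adjusted p 0.0571 to 0.0795) and Limk2 when CPT-11 replicate 1 or any of vehicle replicates 1, 3 and 4 was left out (0.0581 to 0.0773). Pak4, the kinase that the Inka2 protein inhibits, had 72.7, 84.8, 84.9 and 72.9 CPM with vehicle and 64.3, 37.8, 63.3 and 57.9 CPM with CPT-11. Every treated Pak4 value was below every vehicle value, as for 10.1% of all genes tested, but it did not pass (log2 fold change -0.50 ± 0.17, adjusted p = 0.119). With limma-voom quality weights it did (adjusted p = 0.0348).

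Atg9b resembled Inka2 in level and in evenness. It had 0, 3, 9 and 5 counts in vehicle replicates 1 to 4 and 152, 61.99, 73 and 75 in CPT-11 replicates 1 to 4, or 0, 0.142, 0.376 and 0.213 CPM against 6.90, 3.82, 3.05 and 3.71 CPM. Replicate 1 was again the highest, and the other 3 treated libraries lay at 3.53 ± 0.414 CPM. The fitted log2 fold change was 4.52 ± 0.60 (SE). It rests on 0 to 9 counts per vehicle library, and ranged from 4.12 to 5.14 when single libraries were left out. With each library's trend on gene length removed, the treated values were 7.08, 4.81, 2.96 and 4.06 CPM in replicates 1 to 4. Atg9b lies on chromosome 5 (24384181 to 24392143, minus strand) and is protein-coding. Its last 294 bases overlap the end of Nos3 on the opposite strand, outside the coding parts of both genes, which is 7.45% of its exonic bases. Nos3 had 0 to 4 counts per library, and the pair summed gave a log2 fold change of 4.25 ± 0.65. The endothelial markers that go with Nos3 were low: the 12 genes summed to 4.51 to 5.83 CPM with vehicle and 4.14 to 6.19 CPM with CPT-11. Emcn and Flt1 were at 0 in every library, and 0 of 3 tested genes were called (edgeR). Pecam1 alone had an unadjusted p below 0.05 and was higher with CPT-11 (1.77 to 2.32 CPM, against 1.22 to 1.54 CPM with vehicle).

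The ubiquitous form Atg9a remained the more abundant one. Per kilobase its level was 8.41 ± 2.80 CPM (vehicle) and 11.9 ± 3.92 CPM (CPT-11), against 0.0468 ± 0.0400 and 1.12 ± 0.441 CPM for Atg9b. Atg9a was not called (log2 fold change 0.50 ± 0.28, adjusted p = 0.296), and its groups overlapped. Of 44 tested genes of autophagosome formation, Atg9b left out, 0 rose and 0 fell by edgeR, against 2.98% and 2.52% of all genes. At an unadjusted p below 0.05, 6 were higher and 4 lower, and DESeq2 called 1 higher and 2 lower. The share of all genes at that unadjusted p was not counted, so these 10 are not read as a result. The median log2 fold change was -0.039, against 0.014 over all genes. The lowest adjusted p in the list was 0.0750. Among those 10 genes the highest fold changes were those of Map1lc3a (9.08 to 18.5 CPM, log2 fold change 1.02) and Gabarap (214 to 391 CPM, 0.87), which encode ubiquitin-like proteins of the autophagosome membrane, and the lowest was that of Calcoco1 (20.3 to 11.6 CPM, -0.80), an autophagy receptor gene. These 3 were chosen after their values were seen. The means of the first pair rest on CPT-11 replicate 2, where Map1lc3a had 36.8 CPM against 9.88 to 15.5 CPM in the other treated libraries, and Gabarap 764 CPM against 233 to 316 CPM; both are short genes (1112 and 1351 bases).

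**Figure D2:**
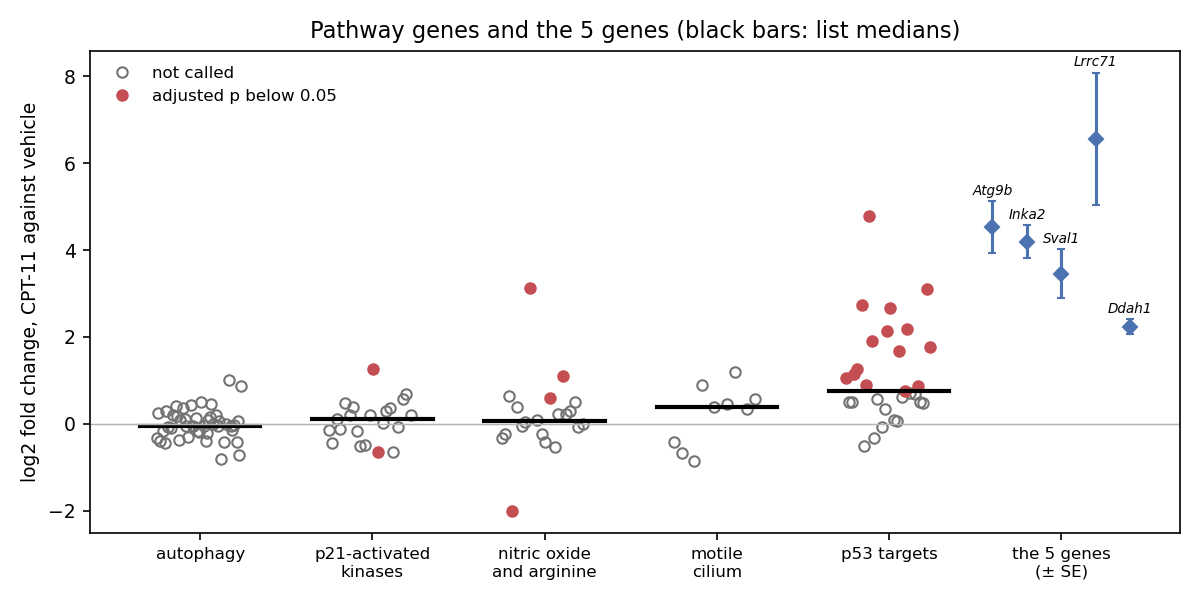
Log2 fold change of each tested gene in 5 lists (circles, filled red where the adjusted p is below 0.05; black bars are list medians) and of the 5 chosen genes (diamonds, ± SE). The autophagy list has no filled circle, 15 of the 29 p53 targets are filled, and the chosen genes lie from 2.24 to 6.56.

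Sval1 was higher in every treated library but unevenly so. Its counts were 16, 10, 7 and 12 in vehicle replicates 1 to 4 and 62, 179, 49 and 123 in CPT-11 replicates 1 to 4, all whole numbers, or 0.698, 0.474, 0.292 and 0.512 CPM against 2.82, 11.04, 2.05 and 6.08 CPM. CPT-11 replicates 2 and 4 stood above replicates 1 and 3, and replicate 2 alone held 50.2% of the summed treated level. The fitted log2 fold change was 3.45 ± 0.56 (SE), and 2.29 without replicates 2 and 4. The gene is short (615 bases, all exonic sequence of its 1 transcript; chromosome 6, 41951630 to 41956098, plus strand), and those are the libraries with fewer reads from long genes. With each library's trend on gene length removed, its treated values were 2.58, 5.35, 2.28 and 4.59 CPM, their coefficient of variation was 40.6%, and vehicle stayed at 0.277 to 0.755 CPM. The order of the treated libraries was the same, and the groups still did not overlap.

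The other genes of its family were silent or nearly so. Sva and Pip had 0 counts in all 8 libraries, and Sval2 and Sval3, which flank Sval1 on chromosome 6, had at most 0.0908 and 0.0427 CPM in any library. The treated libraries that were high in Sval1 were also high in goblet cell genes (36704 and 20243 CPM in replicates 2 and 4, against 11482 and 10659 CPM in replicates 1 and 3). Of the 8 goblet genes 0 rose and 0 fell by edgeR (1 at an unadjusted p below 0.05). Over all genes 2.98% rose and 2.52% fell. M cell genes, of which Marcksl1 and Ccl20 rose among 8 tested, had the same order at its top, with summed levels of 649 and 316 CPM in replicates 2 and 4 against 251 and 242 CPM (198 to 229 CPM with vehicle). The pattern was not particular to these cells: in 9 of the 14 marker lists both replicates 2 and 4 had higher sums than both other treated libraries, among them the ileal epithelium, Paneth cell and enteroendocrine lists. The part of any cell type in the Sval1 level was not tested.

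**Figure D3:**
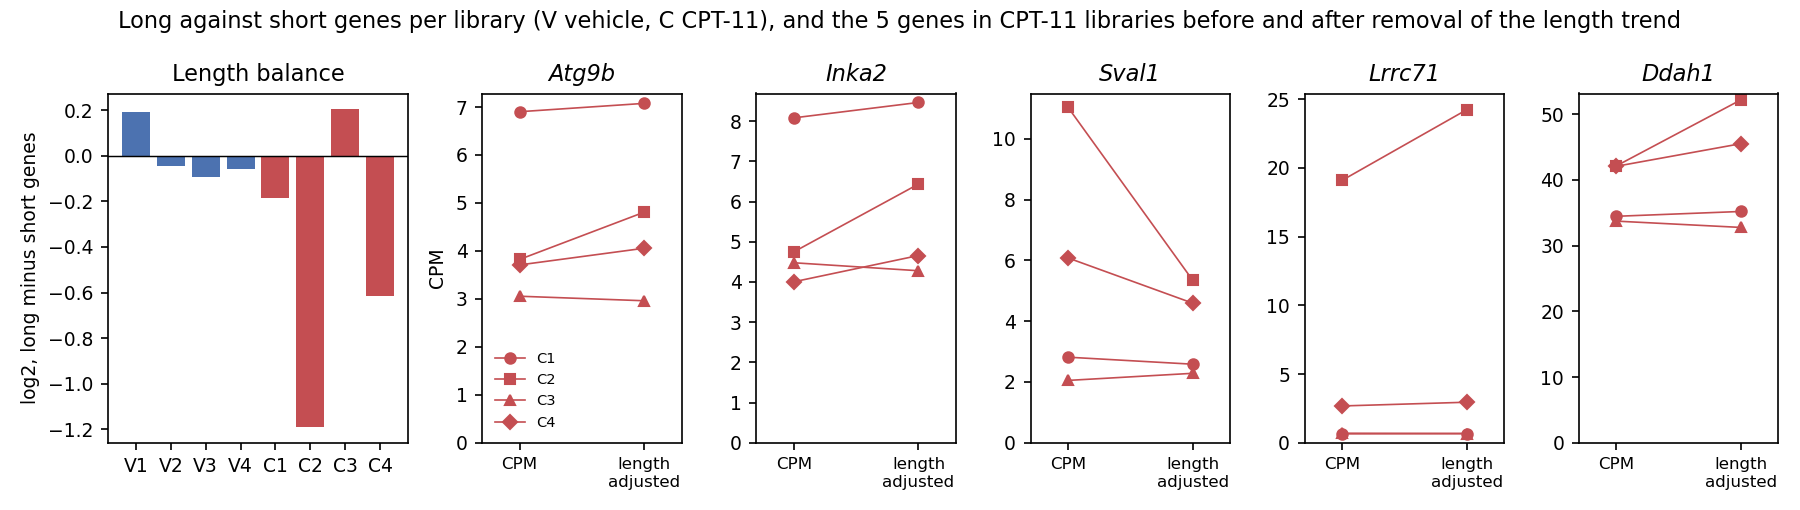
Left, the median log2 deviation of long genes minus that of short genes in each library (V vehicle, C CPT-11), which is lowest at -1.19 in CPT-11 replicate 2. Right, each gene's CPM in the 4 CPT-11 libraries before and after removal of the length trend: Sval1 draws together, with a range of 2.05 to 11.04 CPM before and 2.28 to 5.35 CPM after, and Lrrc71 does not. Ddah1 spreads, with a range of 33.7 to 42.1 CPM before and 32.8 to 52.2 CPM after.

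Lrrc71 had the highest fold change of the 5 and the least secure one. Its estimated counts were 5.43, 0, 0 and 0 in vehicle replicates 1 to 4 and 14.31, 309.51, 16.57 and 54.16 in CPT-11 replicates 1 to 4, or 0.237, 0, 0 and 0 CPM against 0.65, 19.1, 0.693 and 2.68 CPM. CPT-11 replicate 2 held 82.6% of the summed treated level. The other 3 stood at 1.34 ± 1.16 CPM (SD, n = 3). The fitted log2 fold change of 6.56 ± 1.52 (SE) was 4.48 without replicate 2, 3.50 without replicates 2 and 4, and 9.95 without vehicle replicate 1, the only vehicle library with any count, so it has no firm size.

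The reads counted for Lrrc71 were shared with Arhgef11, a guanine nucleotide exchange factor gene on the opposite strand. The genes meet tail to tail on chromosome 3: Lrrc71 runs from 87736923 to 87748625 (minus strand) and Arhgef11 from 87617559 to 87738034 (plus strand), with 991 exonic bases in common, or 21.8% of the exonic bases of Lrrc71 and none of its coding sequence. In vehicle replicates 2 to 4, where Lrrc71 had 0, there was no split to see. In all 5 libraries where Lrrc71 had a count that count was not whole, while the sum of the 2 genes was (tolerance 0.005). Lrrc71 took 0.392% of that sum in vehicle replicate 1 and 1.73%, 71.3%, 1.34% and 8.46% in CPT-11 replicates 1 to 4. Whether the counting used strand is not given in the sources used here, so reads of these genes may not be told apart.

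Arhgef11 itself was at 60.2, 59.1, 62.3 and 48.9 CPM with vehicle and 37.0, 7.68, 51.1 and 29.0 CPM with CPT-11. It was lowest in the 2 libraries in which Lrrc71 was highest and was not called (log2 fold change -0.88 ± 0.42, adjusted p = 0.226). The genes summed gave 60.4, 59.1, 62.3 and 48.9 CPM with vehicle and 37.6, 26.8, 51.8 and 31.6 CPM with CPT-11. The groups overlapped, because treated replicate 3 exceeded vehicle replicate 4, and the sum was lower with CPT-11, not higher (log2 fold change -0.64 ± 0.20 SE). Arhgef11 held over 90% of the summed count in 7 of the 8 libraries, so the sum follows Arhgef11 and gives no fold change for Lrrc71 itself. Removal of the length trend left Lrrc71 at 24.2 CPM in replicate 2 and 0.668 to 2.95 CPM in the other treated libraries. Pear1, which overlaps the other end of Lrrc71 on the same strand, had whole counts and was not called (adjusted p = 0.233), with its lowest treated value, 0.740 CPM, in replicate 2. Without that replicate it passed (log2 fold change 1.03, adjusted p = 0.0391), as it did with quality weights (adjusted p = 0.0111).

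**Figure D4:**
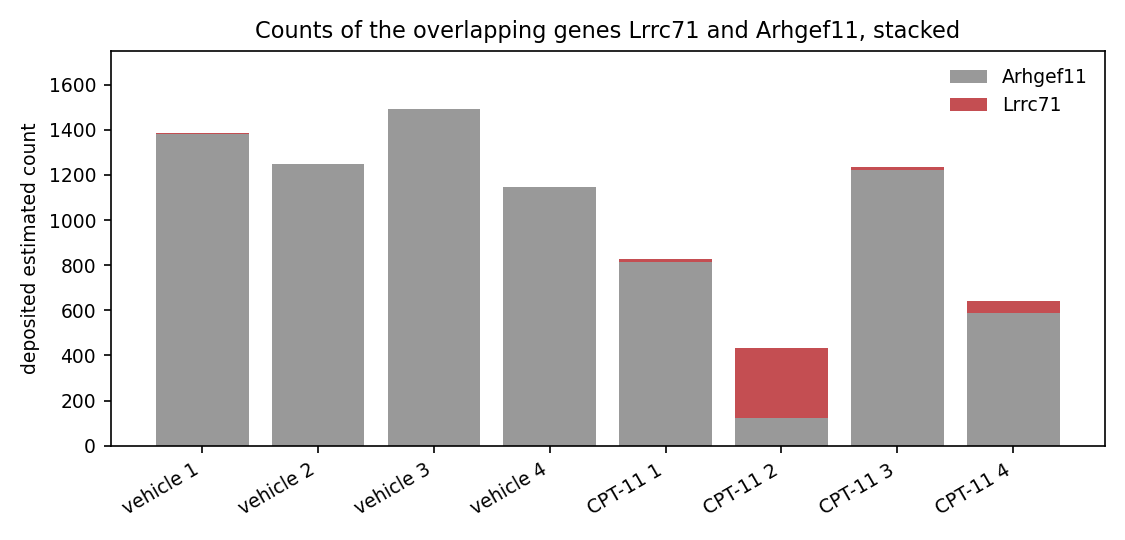
Deposited estimated counts of Arhgef11 (grey) and Lrrc71 (red) stacked for each library. The stack is lowest in CPT-11 replicate 2, at 434 counts, of which 309.51 are assigned to Lrrc71, and Lrrc71 is barely visible in the vehicle libraries.

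Motile cilium genes, a list that holds other leucine-rich repeat proteins, were counted beside Lrrc71. Of 27 genes measured, 9 passed the filter, and 0 rose and 0 fell by edgeR, against 2.98% and 2.52% of all genes. At an unadjusted p below 0.05, 1 was higher and 1 lower, and 1 was higher by DESeq2. The median log2 fold change of the list was 0.40. Their summed level was 34.1, 82.4, 31.1 and 37.8 CPM in CPT-11 replicates 1 to 4 and 33.1 to 37.6 CPM with vehicle. Replicate 2 was thus highest, as for Lrrc71, while replicate 4, the next, lay close to the highest vehicle library. Most of the sum in replicate 2 came from 1 short gene, Tppp3 (1127 bases). It had 54.0 CPM there and 13.9 to 19.4 CPM in the other treated libraries. The order of the sum therefore does not describe the list as a whole. The median log2 fold change of the list fell to 0.11 when CPT-11 replicate 2 was left out and to -0.012 when replicates 2 and 4 both were. The master regulator of these cells, Foxj1, had at most 0.209 CPM in any library, and Tekt1, Spag16 and Lrrc6 were at 0 throughout.

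Of the flanking genes Ccn1 alone was called, while Pear1 passed only in the fits given above and Arhgef11, which was lower, only with quality weights (adjusted p = 0.0360). Of 13 genes that overlap a member or are its nearest protein-coding neighbour, 10 were tested, 1 rose and 0 fell (edgeR, adjusted p below 0.05). Over all genes 2.98% rose and 2.52% fell, and 1 call among 10 genes is not read as a result about these loci. Abcb8, whose start lies 1520 bases from that of Atg9b on the other strand, had 53.7 ± 4.26 CPM (vehicle) and 55.0 ± 5.02 CPM (CPT-11), with a log2 fold change of 0.034 that did not pass (adjusted p = 0.875). Ddx20 and Rap1a, on either side of Inka2, had log2 fold changes of -0.092 and 0.16 (adjusted p = 0.793 and 0.448), and Bcl10, 28527 bases beyond Ddah1, had 0.15 (adjusted p = 0.404). Ccn1, a secreted matricellular protein and a target of YAP, lies 108694 bases from Ddah1 on its other side. It rose from 1.46 ± 0.304 to 3.44 ± 0.584 CPM (log2 fold change 1.23 ± 0.25, adjusted p = 0.0207). It no longer passed when CPT-11 replicate 4, or any of vehicle replicates 1 to 3, was left out (adjusted p 0.0566 to 0.0776). Etv3 (-0.0029, adjusted p = 0.996) and Kcnh2 (-0.53, adjusted p = 0.332) were not called.

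For each member, the genes outside the 5 with the most similar pattern over the 8 libraries were sought. The measure was the root mean square difference of log2(CPM + 0.5), after each gene was centred on its vehicle mean. Predicted gene models and pseudogenes were left out. Both groups and the depth of the libraries enter this measure, so it describes likeness only. The added 0.5 CPM also shrinks the differences of genes near 0 with vehicle, such as Atg9b and Inka2. A small value therefore does not mean a like fold change: the fitted log2 fold changes of Atg9b, Inka2 and Ephx1 were 4.52, 4.20 and 2.75. Atg9b and Inka2 differed from each other by 0.21, the least of the 10 pairs of members, and had the same 3 nearest genes: Ephx1, a detoxifying epoxide hydrolase and p53 target (0.27 and 0.30), Akr1b8, an aldo-keto reductase (0.35 and 0.29), and Ltf, lactoferrin (0.37 and 0.36). For Ddah1 these were Etv4, an ETS transcription factor (0.19), Ccng1, cyclin G1 and a p53 target (0.27), and Mboat1, a lysophospholipid acyltransferase (0.30). For Sval1 they were R3hdml (0.37), Smcp, a sperm mitochondrial protein (0.39; 0 or 0.0474 CPM in the vehicle libraries and 1.67 to 5.30 CPM in the treated ones), and Mgmt, the enzyme that repairs alkylated guanine (0.39). All 3 were, like Sval1, highest in CPT-11 replicate 2. No gene outside the 5 was close to Lrrc71: the nearest, Dcxr, Smcp and Agbl1, differed by 0.81, 0.82 and 0.84. Sval1, a member and so not a candidate, differed from Lrrc71 by 0.64.

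The p53 targets gave the scale for these differences. Of 29 tested, 15 rose and 0 fell (edgeR, adjusted p below 0.05), against 2.98% and 2.52% of all genes. Their median log2 fold change was 0.77, and 3 of the 29 had a negative one. With single libraries left out 9 to 16 passed, with the fewest, 9, without vehicle replicate 3. The vehicle levels of Phlda3, an inhibitor of Akt, were 1.22, 1.37, 1.84 and 1.62 CPM and its CPT-11 levels 52.1, 51.2, 30.2 and 35.4 CPM. Its log2 fold change was 4.79 ± 0.25 (adjusted p = 9.26e-06). Ephx1 was at 2.75 ± 0.14 (adjusted p = 9.26e-06), Ccng1 at 2.14 ± 0.15 (adjusted p = 7.67e-05) and Zmat3, which encodes a zinc finger protein that binds RNA, at 1.90 ± 0.14 (adjusted p = 0.00011). Of the 15 that rose, 10 were highest in CPT-11 replicate 1, 4 in replicate 2 and 1, Ephx1, in replicate 4. The share of all genes highest in each library was not counted, so nothing is read from this. The part of p53 in the levels of the 5 chosen genes was not tested.

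Markers of other cells were counted in the same libraries. Over all genes tested 2.98% were called higher and 2.52% lower. Of 7 tested B cell and plasma cell genes 3 rose (Ms4a1, Cd79b and Cd79a), with summed levels of 315 to 347 CPM with vehicle and 343 to 387 CPM with CPT-11 and Tnfrsf17 at 0 throughout. Of 11 macrophage and dendritic cell genes Cd14 and C1qc rose (46.9 to 60.9 CPM against 57.9 to 82.0 CPM), and of 14 enterocyte genes Fabp2 rose. At an unadjusted p below 0.05 (edgeR), the B cell, macrophage and enterocyte lists had 5, 7 and 4 genes higher, and 0, 1 and 0 lower. Their median log2 fold changes were 1.64, 0.95 and 0.70. Fibroblast and smooth muscle genes (7 tested), T cell genes (12), tuft cell genes (8), Paneth cell genes (7) and enteroendocrine genes (10) had 0 calls by edgeR, with 1, 1, 2, 2 and 3 at an unadjusted p below 0.05. Those of the tuft and Paneth cell lists were all lower with CPT-11. The neutrophil genes summed to at most 0.797 CPM, with Ly6g, Mpo and Elane at 0. Their part in the levels of the 5 genes was not tested.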

How the data were processed

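RNA sequencing of ileal crypt cells gave 4 vehicle and 4 CPT-11 libraries. The authors deposited estimated counts per gene, not normalized. Per the submitters' processing notes, Bowtie2 2.4.1 and build GRCm38.p6 were used; the counting tool and its strand setting are details not given in the sources used here. The table also holds a gene length, used for levels per kilobase. The 543 rows with no gene name (0.325% to 0.662% of each library's count) were left out. After rounding, edgeR 4.0.16 (R 4.3.3) tested the counts (TMM scaling, default expression filter, robust quasi-likelihood F test, two-sided), with Benjamini-Hochberg adjustment over the 14011 genes kept and a threshold of 0.05. CPM uses TMM-scaled library sizes of the deposited estimated counts. Each standard error was derived from the fold change and its F statistic. GENCODE M21 supplied coordinates, and in it 55141 of 55487 named rows were found by identifier.

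The members, gene lists and tests were chosen with earlier results of these data known. Named genes were the members, fixed relatives (Atg9a, Inka1, Pak4, Sval2, Sval3, Pip, Ddah2, Nos1, Nos2 and Nos3), up to 4 called genes per list and direction, neighbours, and the 3 genes most alike in pattern. Other p53 targets called, and other list members given by count, are not named. Some items that the rules cover are not reported here. Alternatives were other scalings (RLE, upper quartile), other filters (none, or at least 1 CPM in at least 4 libraries), other tools (limma-voom of limma 3.58.1, plain or with sample quality weights, and DESeq2 1.42.0), a block on replicate number, each library left out, CPT-11 replicates 2 and 4 left out, and removal of a loess trend on gene length. Summing overlapping gene pairs was added after seeing the data. The fitting script was tested on simulated data.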

Additional observations from a re-analysis of the deposited data

Results flagged for a closer look

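In 64 groups of 4 libraries, 11 had a highest or lowest library whose gap to the next exceeded Dixon's 95% critical value; chance flags about 1 in 20 groups, and several of these rest on 1 to 4 counts. Lrrc71 was flagged in both groups, at 0.237 CPM in vehicle replicate 1 and at 19.1 CPM in CPT-11 replicate 2. Its reads are shared with Arhgef11, as given above.

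Of its neighbours and those of the other members, the lowest vehicle value of Pear1 was 0.853 CPM in replicate 2, and the highest vehicle value of Bcl10 was 38.4 CPM in replicate 4. Genes at the floor of detection were flagged for a single library: Nos3 at 0.167 CPM in vehicle replicate 3, Sval2 at 0.0908 CPM in CPT-11 replicate 1, and Sval3 at 0.0427 CPM in vehicle replicate 4 and 0.0419 CPM in CPT-11 replicate 3. Among list genes, Slc7a2 was lowest with vehicle in replicate 4, at 3.84 CPM, Ephx1 lowest with CPT-11 in replicate 3, at 88.6 CPM, and Ccng1 highest with CPT-11 in replicate 1, at 319 CPM.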

How the results depend on the processing

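Ddah1 and Inka2 moved by less than the spread among the CPT-11 libraries in each of the 19 alternatives, with log2 fold changes of 2.15 to 2.37 and 3.92 to 4.42 when single libraries were left out. Atg9b was 5.32 with quality weights (4.12 to 5.14 with single libraries left out), Sval1 2.29 without CPT-11 replicates 2 and 4 (2.88 to 3.73), and Lrrc71 4.52 with quality weights and 3.50 without those replicates (4.48 to 9.95). Lrrc71 and Arhgef11 summed gave -0.64, a value set by Arhgef11, which alone gave -0.88, and not a fold change of Lrrc71. Lrrc71 was not kept by the stricter filter. The cause of the other shifts was not tested.

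Over all genes, 1045 were higher and 839 lower by DESeq2, 1535 and 1635 with quality weights, 637 and 575 without CPT-11 replicates 2 and 4, and 660 and 645 with the length trend removed; single libraries left out gave 132 to 769 and 104 to 753. With the replicate block, 397 were higher and 289 lower, and the call of Rhov was lost (adjusted p = 0.0578), leaving 0 higher in the p21-activated kinase list. Same-numbered libraries did not deviate together in all pairs (correlations 0.192, 0.133, -0.112 and 0.0629), 3 of 8 libraries correlated best with their own number, and the numbers were not taken to pair the samples.

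In the autophagy list, 1 was higher and 2 lower by DESeq2, 4 and 4 with quality weights, and 1 lower with no filter or with the length trend removed (median 0.063); single libraries left out gave 0 to 2 lower. In the p21-activated kinase list, 4 were higher by DESeq2, 4 and 4 were higher and lower with quality weights, and 2 higher without CPT-11 replicates 2 and 4. Its median was 0.029 there and 0.22 with the length trend removed; single libraries left out gave 0 to 2 in either direction and medians of 0.026 to 0.21. In the nitric oxide list, 2 were lower with quality weights, without CPT-11 replicates 2 and 4, or with the length trend removed, and its median was 0.20 with no filter and -0.049 without those replicates; single libraries left out gave 1 to 2 lower. In the cilium list, 1 was higher by DESeq2, and 1 higher and 1 lower with quality weights; its median was -0.012 without CPT-11 replicates 2 and 4, and 0.11 to 0.50 with single libraries left out. Of the p53 targets, 24 were higher with quality weights, and 9 to 16 with single libraries left out.

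Among genes not called, Pak4, Arhgef11 and Pear1 passed with quality weights (adjusted p = 0.0348, 0.0360 and 0.0111), and Pear1 also without CPT-11 replicate 2 (0.0391). Signs turned for Abcb8 (-0.022 without CPT-11 replicate 4, -0.055 without replicates 2 and 4), Ddx20 (0.10 with quality weights, -0.18 to 0.087 with single libraries left out, the highest without CPT-11 replicate 2, 0.054 without 2 and 4), Rpl36a-ps2 (-0.23 without 2 and 4, -0.32 with the length trend removed) and Etv3 (0.0034 with the stricter filter, 0.13 with quality weights and with the length trend removed, 0.086 without vehicle replicate 1, 0.21 and 0.087 without CPT-11 replicates 2 and 4 in turn, 0.41 without both, and -0.30 to 0.21 over all single libraries left out).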
